A study of Mus musculus with 6 samples.

Results

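Voltage-gated calcium channels are the surface membrane pores through which calcium enters a heart muscle cell when it depolarises. An L-type channel is built from a pore-forming alpha1 subunit (Cacna1c or Cacna1d in heart) with a cytoplasmic beta subunit and an extracellular alpha2delta subunit, which help to bring the pore to the membrane and set its gating. The calcium that enters through L-type channels opens the release channels of the sarcoplasmic reticulum and so triggers contraction. T-type channels (Cacna1g and Cacna1h) open at more negative voltages, can conduct as the alpha1 subunit alone, and are known in the adult heart mainly from pacemaker and conduction tissue. They are more abundant in fetal heart muscle.

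The 9 genes described here were taken by symbol from a table of 24315 rows. They are 2 L-type and 2 T-type alpha1 genes, 3 beta genes (Cacnb1, Cacnb2 and Cacnb3) and 2 alpha2delta genes (Cacna2d1 and Cacna2d2). The set was chosen by channel family and on results of the same comparison between genotypes, so the differences below are a description and carry no test of their own.

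Messenger RNA was sequenced from whole hearts of male mice aged 6 weeks on a C57Bl6J background. All 6 mice carried floxed cyclin C alleles. The 3 controls (fl/fl) carried nothing further, and the 3 others (cKO) also carried aMHC cre, a Cre transgene whose promoter, that of alpha myosin heavy chain, works in heart muscle cells. No control carried Cre, so Cre and the deletion cannot be told apart, and non-muscle cells of the heart keep an intact gene. Cyclin C is the cyclin of the Mediator kinase module, and its own transcript Ccnc averaged 8.97 ± 1.67 FPKM in fl/fl hearts and 5.35 ± 0.71 FPKM in cKO hearts (SD, n = 3 each). Ccnc was lower in every cKO heart but did not pass in the limma fit over all genes (adjusted p = 0.144). FPKM is the number of sequenced fragments per kilobase of transcript, scaled to the size of the library, so levels of different genes can be set side by side. Read numbers are not given in the files used here. In the other libraries the step between low values was 0.911 to 1.13 times that of fl/fl 1. FPKM is scaled to library size, so a larger step means a shallower library, and these ratios are the inverse of relative depth. Where 3 values are listed for a genotype, they stand for replicates 1, 2 and 3 in that order. All 14 ventricular muscle markers were detected, with summed levels of 85381 to 115225 FPKM in fl/fl hearts and 59801 to 66412 FPKM in cKO hearts. Replicate 3 of both genotypes stood apart in clock genes. The clock gene Arntl read 8.84 FPKM in fl/fl 3, 13.7 FPKM in cKO 3 and no more than 1.36 FPKM in any other library.

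Promoter windows are described for the genes that could be matched. Those of the alpha2delta genes are printed because both genes read lower in every cKO heart. Of the 9 genes, 7 matched a RefSeq promoter table (build GRCm38.p6), with 13 annotated starts between them, while Cacna1g and Cacna1h were not matched. The 250 bases before the only listed start of each alpha2delta gene follow, 5′ to 3′ on the plus strand, with GC boxes (GGGCGG on either strand) in capitals. The windows are chr5:15934441-15934690 and chr9:107399630-107399879. In RefSeq the Cacna2d1 gene begins at base 15934264, before its window, and Cacna2d2 at base 107399733, inside its window. The listed starts are thus not the outermost annotated ones, and the windows lie wholly or partly within the annotated genes.
Cacna2d1: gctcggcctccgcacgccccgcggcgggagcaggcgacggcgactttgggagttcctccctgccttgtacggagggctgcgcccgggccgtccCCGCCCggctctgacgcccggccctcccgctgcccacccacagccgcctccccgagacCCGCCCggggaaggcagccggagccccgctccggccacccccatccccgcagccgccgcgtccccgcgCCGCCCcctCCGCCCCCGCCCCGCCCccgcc
Cacna2d2: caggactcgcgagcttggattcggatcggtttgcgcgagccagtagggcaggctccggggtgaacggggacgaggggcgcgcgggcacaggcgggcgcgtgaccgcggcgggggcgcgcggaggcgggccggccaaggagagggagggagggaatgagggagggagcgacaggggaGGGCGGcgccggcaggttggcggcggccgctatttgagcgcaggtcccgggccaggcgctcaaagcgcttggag

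Cacna2d1 held 6 GC boxes and Cacna2d2 held 1, and 32.7% of 32851 promoters of that length held at least 1. The windows were 82.4% and 74.4% G or C, against a median of 52.4% over all promoters. Neither held an E box (CANNTG, in 66.2% of promoters), a TATAAA box (12.4%), AGATAA (9.99%) or TNAAGTG (10.1%) on either strand, and Cacna2d1 held 1 copy of TGACG (17.8%). A match is a run of letters and not a binding site. Cacna1c, Cacna1d, Cacnb1, Cacnb2 and Cacnb3 each have more than 1 listed start. Their windows ranged from 39.6% G or C at 1 start of Cacna1d to 86.4%, with 5 GC boxes, at its other start. Each of these genes had a window above the median with at least 1 GC box, so these traits were not particular to the alpha2delta genes. Cacna1c, which read higher in every cKO heart, had 82.8% G or C and 6 GC boxes at 1 start. At 1 start each, Cacnb1 had 73.2% and 5, Cacnb2 73.2% and 1, and Cacnb3 70.4% and 3. Gene-level FPKM does not say which start was used.

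The summed level of the family is given first, then the place of each gene. The sum is made up mostly of Cacna2d1, Cacnb2 and Cacna1c, so it says little about the genes of lower level. Summed over the 9 genes, the level was 108.1, 112.6 and 117.3 FPKM in fl/fl hearts and 115.5, 112.7 and 87.4 FPKM in cKO hearts. The groups overlapped, and cKO 3 was the lowest library. Cacna1h and Cacna1c read higher in every cKO heart than in any fl/fl heart, and Cacna1g, Cacnb1, Cacna2d1 and Cacna2d2 lower in every cKO heart. The remaining 3 genes, Cacna1d, Cacnb2 and Cacnb3, overlapped between genotypes. Among 12103 tested genes (mean FPKM of at least 1) the groups lay apart with cKO higher for 10.1% and with cKO lower for 10.3%. As the set was chosen on this comparison, nothing is read from its own count.

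In fl/fl hearts Cacna2d1 had the highest level, with no overlap with the next gene. Cacnb2 and Cacna1c followed at levels that overlapped each other. Cacna1g, Cacnb1, Cacna1h, Cacnb3 and Cacna2d2 came next in that order, and each overlapped its neighbour. Cacna1d was lowest. In cKO hearts Cacna1c overlapped Cacna2d1 at the top and lay above Cacnb2 in every library. Cacna1h stood directly below Cacnb2 and did not overlap Cacna1g, and Cacna2d2 was lowest, overlapping Cacna1d.

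**Figure D1:**
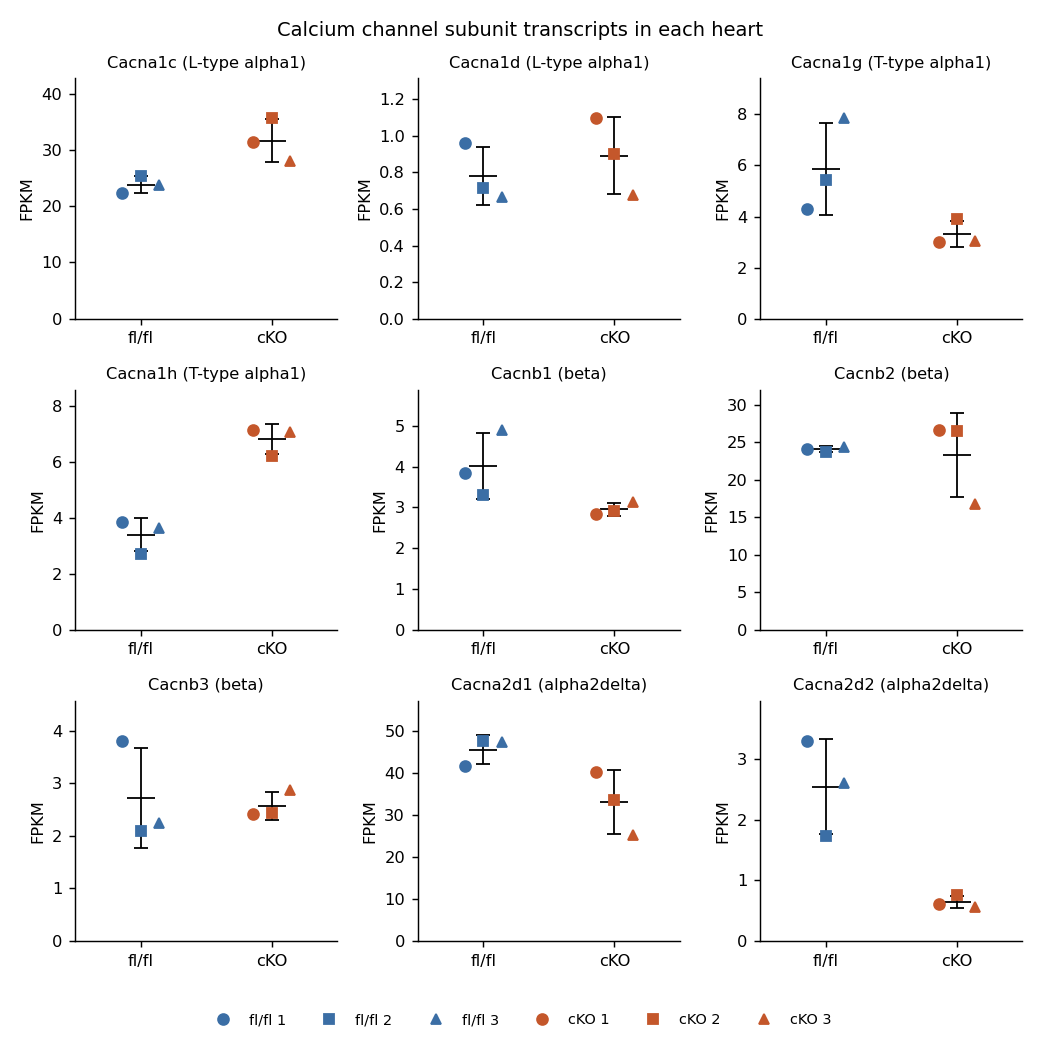
FPKM of each of the 9 subunit genes in each heart, with fl/fl in blue and cKO in orange, symbols for replicate numbers, and bars for mean and SD (n = 3). Cacna1h and Cacna1c lie higher in all 3 cKO hearts, and Cacna1g, Cacnb1, Cacna2d1 and Cacna2d2 lie lower.

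Cacna1c encodes the pore of the main L-type channel of ventricular muscle, the channel blocked by dihydropyridines. It read 22.4, 25.3 and 23.8 FPKM in fl/fl hearts and 31.3, 35.6 and 28.1 FPKM in cKO hearts. Every cKO heart was above every fl/fl heart, and the gap between the groups was narrow, from 25.3 to 28.1 FPKM. The means were 23.8 ± 1.48 and 31.7 ± 3.76 FPKM (SD, n = 3 each), a ratio of 1.33. On the log2(FPKM + 1) scale the difference was 0.39 (SE 0.11). Because of the added 1, such differences are smaller than the true log2 ratio, above all for genes of low level.

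Cacna1d encodes a second L-type pore, which opens at more negative voltages than Cacna1c and serves in atrial and sinoatrial cells. It read 0.959, 0.713 and 0.667 FPKM in fl/fl hearts and 1.1, 0.901 and 0.677 FPKM in cKO hearts. The groups overlapped over most of their range. With a mean below 1 FPKM it was the 1 member left out of the fit across all genes. It made up 3.19 ± 0.794% of the L-type sum in fl/fl and 2.73 ± 0.56% in cKO (SD, n = 3 each). Cacna1d lies on a stretch that the table also assigns to Chdh and Dcp1a, and 4.18% of the 50-base words of its GENCODE transcripts occur antisense in Chdh. Chdh was 1.26 FPKM in fl/fl 1, with a maximum of 0.252 FPKM in the rest, and fl/fl 1 was the fl/fl library with the highest Cacna1d. The highest Cacna1d of all libraries was in cKO 1, where Chdh was 0.252 FPKM. The part of Chdh in the level of Cacna1d was not tested.

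Cacna1h encodes the T-type pore Cav3.2. It read 3.85, 2.72 and 3.64 FPKM in fl/fl hearts and 7.16, 6.23 and 7.09 FPKM in cKO hearts. The lowest cKO heart was well above the highest fl/fl heart. The means were 3.4 ± 0.6 and 6.83 ± 0.521 FPKM (SD, n = 3 each), a ratio of 2.01, and the log2(FPKM + 1) difference was 0.84 (SE 0.13). A larger difference was found for 0.537% of tested genes, a rank that belongs to the values that chose the set. Leaving out any 1 library kept the ratio between 1.82 and 2.15.

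In the limma fit over all genes, which helped to choose the set, Cacna1h was the only member to pass (adjusted p = 0.0456), against 0.587% of all tested genes. It passed in 0 of the 6 fits that left out 1 library, where the adjusted p ran from 0.0928 without fl/fl 1 to 0.214 without cKO 1. Over all 16 alternatives the adjusted p ran from 0.0151 to 0.286, and 6 passed. Cacna2d2 had an adjusted p of 0.0775 in limma and passed in 3 of its 15 alternatives, at 0.0417 with quantile normalization, 0.034 with array weights and 0.0466 with the replicate number as a block, and its highest adjusted p was 0.374. Of the 9 members 4 had a q-value under 0.05 in the authors' deposited table, against 3.77% of 12587 tested genes there. The authors' deposited q-values were 0.00301 for Cacna1g, Cacna1h and Cacna2d2 and 0.0383 for Cacna2d1, and 0.085 for Cacna1c, which was not called. As with the count of groups that lay apart, these calls belong to the values that chose the set.

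The table places Cacna1h on chromosome 17, 25507497 to 25570728, in 1 stretch with Tpsg1, a mast cell tryptase. Tpsg1 stood at 0.01 FPKM, the lowest value in the table, in 5 libraries and at 0.158 FPKM in cKO 3. At most 1.12% of the 50-base words of Cacna1h transcripts occur in another gene, namely Cacna1i or antisense to Tpsg1. Summed over 11 mast cell genes, levels were 13.9 to 24.6 FPKM in fl/fl hearts and 17.6 to 20.8 FPKM in cKO hearts. Of its tryptases and chymases, Tpsab1 was at most 0.108 FPKM. Tpsb2 ranged from 1.05 to 3.28 FPKM, Mcpt4 from 0.96 to 4.57 FPKM and Cma1 from 0.445 to 2.35 FPKM, each with overlapping groups and a lower mean in cKO. Other genes of the list went the other way, and of 7 tested 3 had a positive and 4 a negative sign. Kit was higher in every cKO heart, at means of 2.11 and 3.12 FPKM, and Hdc and Gata2 had higher cKO means with overlapping groups.

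Cacna1g encodes the other cardiac T-type pore, Cav3.1. It read 4.31, 5.42 and 7.84 FPKM in fl/fl hearts and 3.02, 3.89 and 3.03 FPKM in cKO hearts. Every cKO heart was below every fl/fl heart, though cKO 2 came close to fl/fl 1, and fl/fl 3 was far above the other libraries. The means were 5.86 ± 1.81 and 3.31 ± 0.498 FPKM (SD, n = 3 each), a ratio of 0.566, and the log2(FPKM + 1) difference was -0.64 (SE 0.23). Without replicate 3 of both genotypes the ratio was 0.71.

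The T-type genes exchanged places between genotypes. Cacna1h was 47.2%, 33.4% and 31.7% of the T-type sum in fl/fl hearts and 70.3%, 61.6% and 70% in cKO hearts. In all 3 fl/fl hearts Cacna1g was the more abundant gene, and in all 3 cKO hearts Cacna1h was. The sum of both was 8.15, 8.14 and 11.5 FPKM in fl/fl hearts and 10.2, 10.1 and 10.1 FPKM in cKO hearts, so every cKO heart lay above fl/fl 1 and fl/fl 2 and below fl/fl 3. The overlap of the sums rests on fl/fl 3 alone. T-type genes made up 27.2 ± 4.24% of the T-type and L-type levels together in fl/fl and 23.9 ± 2.17% in cKO (SD, n = 3 each), and these shares overlapped. No 50-base word of any member's transcripts occurs in another member, so exact sharing of reads between Cacna1g and Cacna1h was not found at that length.

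**Figure D2:**
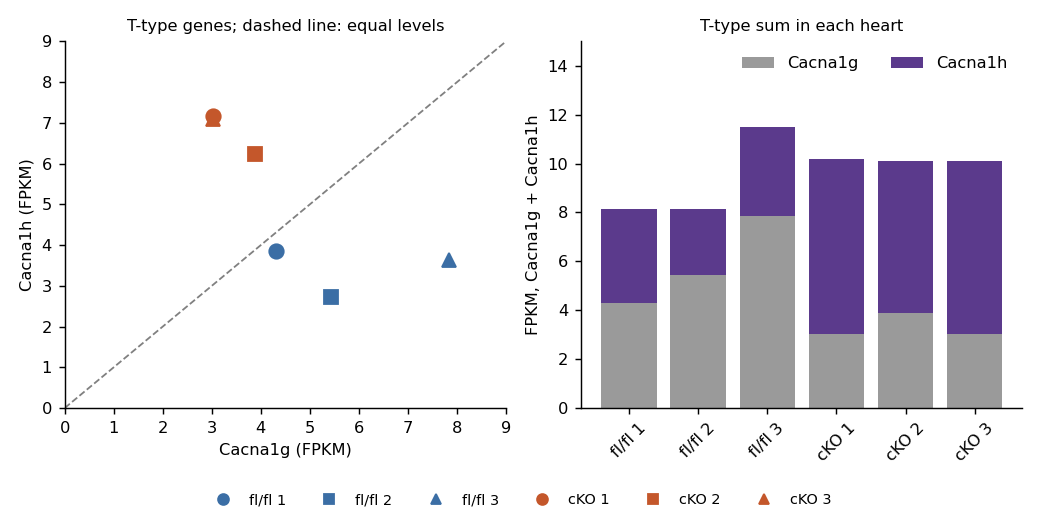
Left, Cacna1h against Cacna1g (FPKM) in each heart with a dashed line of equal levels. Right, the T-type sum in each heart split by gene. The fl/fl hearts lie below the line and the cKO hearts above it, at sums of 8.14 to 11.5 FPKM and 10.1 to 10.2 FPKM.

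Beta subunits bind the inner face of L-type pores, and Cacnb2 is the main cardiac form. It read 24.1, 23.7 and 24.4 FPKM in fl/fl hearts and 26.7, 26.5 and 16.8 FPKM in cKO hearts. The fl/fl hearts were nearly equal, while cKO 1 and cKO 2 lay above all of them and cKO 3 lay far below. The ratio of means was 0.969, and without cKO 3 it was 1.1. The log2(FPKM + 1) difference was -0.07 (SE 0.21), and 0.14 without cKO 3, so its sign rests on that library. Of the 50-base words of Cacnb2 transcripts 5.9% occur in other genes, many of them antisense.

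Cacnb1, the beta subunit of skeletal muscle channels, read 3.85, 3.31 and 4.91 FPKM in fl/fl hearts and 2.83, 2.91 and 3.12 FPKM in cKO hearts. The groups did not overlap, but the nearest values, 3.31 and 3.12 FPKM, were close. The ratio of means was 0.734 and the log2(FPKM + 1) difference was -0.33 (SE 0.14). Cacnb3, a beta subunit best known from smooth muscle and neurons, read 3.81, 2.1 and 2.24 FPKM in fl/fl hearts and 2.41, 2.43 and 2.87 FPKM in cKO hearts. The fl/fl group spanned the cKO group because of fl/fl 1. Its log2(FPKM + 1) difference was -0.03 (SE 0.21), and 0.17 without fl/fl 1.

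Alpha2delta subunits are cleaved proteins held at the outer face of the membrane and are the targets of gabapentin. Cacna2d1, the main form in ventricular muscle, read 41.5, 47.6 and 47.3 FPKM in fl/fl hearts and 40.3, 33.6 and 25.2 FPKM in cKO hearts. Every cKO heart was below every fl/fl heart, but cKO 1 nearly reached fl/fl 1. The means were 45.5 ± 3.42 and 33 ± 7.59 FPKM (SD, n = 3 each), a ratio of 0.726, and the log2(FPKM + 1) difference was -0.47 (SE 0.20). Without replicate 3 of both genotypes the ratio was 0.829.

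Cacna2d2, the second alpha2delta gene, is known for strong expression in cerebellum and is also found in atrial muscle. It read 3.3, 1.73 and 2.6 FPKM in fl/fl hearts and 0.617, 0.752 and 0.559 FPKM in cKO hearts. The groups were far apart, and no member differed by a larger factor. The means were 2.54 ± 0.789 and 0.643 ± 0.0986 FPKM (SD, n = 3 each), 3.96-fold lower in cKO, with a log2(FPKM + 1) difference of -1.09 (SE 0.20). A lower log2 difference was found for 0.496% of tested genes, a rank that also belongs to the values that chose the set. It passed the filter on low values only through the fl/fl hearts. The level in cKO was below 1 FPKM, where the number of reads behind a value is unknown.

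Most atrial markers were lower on average in the cKO hearts. Of 13 tested genes listed as atrial markers 12 had a negative log2 difference (median -1.34). In the limma fit over all genes Bmp10 was the 1 listed gene to fall and Myl1 the 1 to rise. Myl1 is best known as a light chain of fast skeletal muscle, so its rise is not read as atrial. The summed level of the list was 3840 to 6640 FPKM in fl/fl hearts and 1760 to 4777 FPKM in cKO hearts. Its largest part was Nppa, which overlapped between genotypes, at 1827 to 3715 FPKM in fl/fl hearts and 1040 to 3231 FPKM in cKO hearts. Myl7, a myosin light chain of atrial muscle, was at 1116, 808 and 681.6 FPKM in fl/fl hearts and 323.5, 57.5 and 64 FPKM in cKO hearts. It did not pass in limma (adjusted p = 0.0997). Fewer cells of a type and less RNA per cell cannot be told apart in whole hearts, and the part of atrial tissue in the level of Cacna2d2 was not tested.

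**Figure D3:**
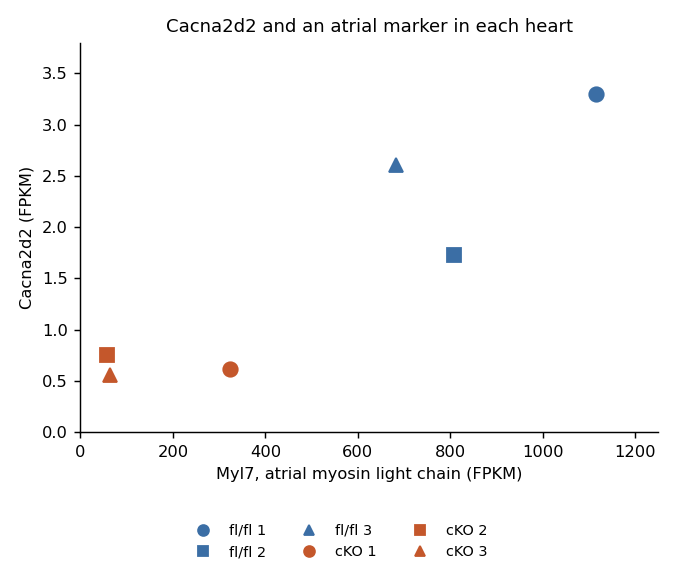
Cacna2d2 against the atrial marker Myl7 (both FPKM) in each heart, fl/fl in blue and cKO in orange. Both genes are lower in all 3 cKO hearts, with Myl7 at 57.5 to 323.5 FPKM and Cacna2d2 at 0.559 to 0.752 FPKM.

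Set against the L-type pore gene Cacna1c, 4 of the 5 accessory genes were lower in every cKO heart than in any fl/fl heart, and Cacnb3 overlapped. Cacna1c was itself higher in every cKO heart, so a gene of equal level in both genotypes also tends to a lower ratio. The share of all tested genes with such a ratio was not computed, and nothing is read from the count. The ratio of Cacna2d1 to Cacna1c was 1.86, 1.88 and 1.99 in fl/fl hearts and 1.29, 0.944 and 0.896 in cKO hearts. The fl/fl ratios were tightly grouped (1.91 ± 0.0708) and the cKO ratios wider (1.04 ± 0.213; SD, n = 3 each). The ratio of Cacnb2 to Cacna1c was 1.08, 0.934 and 1.03 in fl/fl hearts and 0.852, 0.744 and 0.598 in cKO hearts. The ratio of Cacnb3 to Cacna1c was 0.17, 0.0829 and 0.0942 in fl/fl hearts and 0.077, 0.0682 and 0.102 in cKO hearts, with cKO 3 above fl/fl 2 and fl/fl 3. All beta transcripts together, most of them Cacnb2, stood at 1.26 ± 0.127 times the L-type sum in fl/fl and 0.883 ± 0.0965 times in cKO. For Cacnb2 the lower ratio came with a higher Cacna1c in every cKO heart and, in cKO 1 and cKO 2, with a Cacnb2 level above that of the controls.

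**Figure D4:**
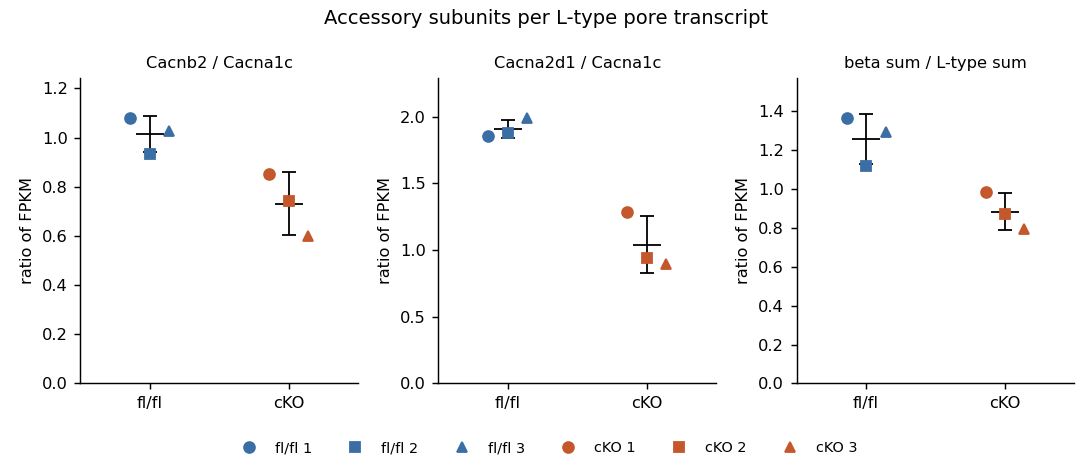
Ratios of FPKM in each heart, Cacnb2 to Cacna1c, Cacna2d1 to Cacna1c and the beta sum to the L-type sum, with mean and SD (n = 3). In all 3 panels each cKO heart lies below each fl/fl heart.

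Of the 17 other voltage-gated calcium channel genes, 15 had a mean below 1 FPKM. Cacna1s, the skeletal muscle L-type pore, averaged 1.95 ± 0.466 FPKM in fl/fl hearts and 1.95 ± 0.337 FPKM in cKO hearts, and Cacng7, a gamma subunit gene, 3.83 ± 1.28 and 4.06 ± 0.903 FPKM (SD, n = 3 each). Neither passed in limma, by adjusted or unadjusted p. Cacng2, Cacng3 and Cacng8 were at 0.01 FPKM in every library, and the third T-type gene, Cacna1i, was at most 0.0895 FPKM. Cacna2d3, a further alpha2delta gene, was below the filter and averaged 0.691 FPKM in fl/fl hearts and 0.249 FPKM in cKO hearts.

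**Figure D5:**
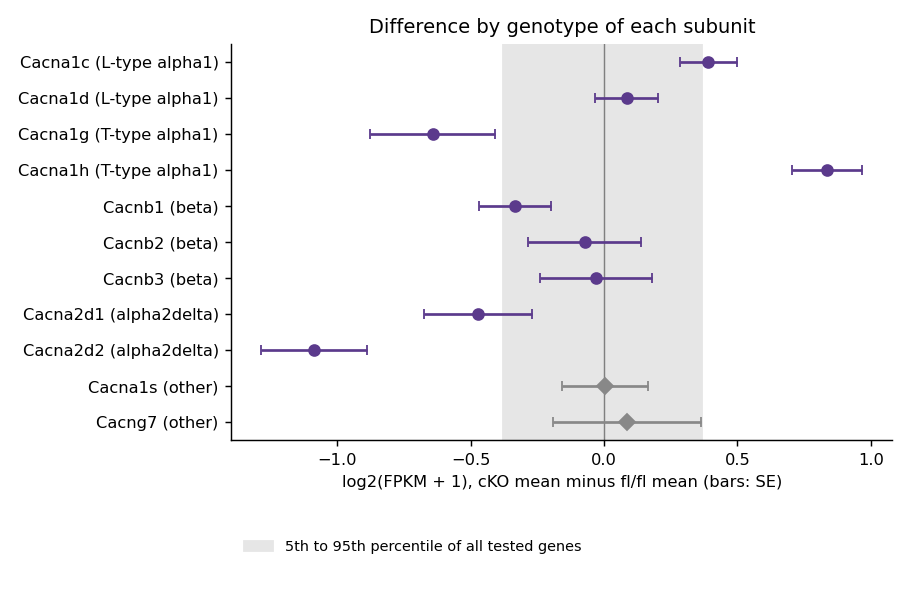
Difference in log2(FPKM + 1), cKO mean minus fl/fl mean, for the 9 members (purple) and the 2 other subunit genes with a mean of at least 1 FPKM (grey), with SE bars and the 5th to 95th percentile of all tested genes shaded (-0.38 to 0.37). Cacna1h and Cacna1c lie to the right of the shaded range, and Cacna1g, Cacna2d1 and Cacna2d2 to its left. The members were chosen on this comparison, so their place against the range is a description and no test. Cacna1d was below the filter and is not among the tested genes.

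Beyond the channel itself, 35 of 39 listed partners and regulators of the L-type channel were tested with limma, and 1 rose while none fell. Sri, which encodes sorcin, a calcium-binding protein that interacts with the L-type channel and the ryanodine receptor, was that gene. It read 23.4, 23.9 and 21.4 FPKM in fl/fl hearts and 39.7, 43.4 and 43.5 FPKM in cKO hearts. The groups were compact and far apart, at a ratio of 1.84 and a log2 difference of 0.85 (SE 0.09; limma, adjusted p = 0.0099, against 0.587% of all genes called). The call ended without cKO 2, within replicates 1 and 2, and with no filter on low genes. The median log2 difference of the list was 0.05, against -0.002 over all tested genes, and 22 signs were positive and 13 negative.

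The other partners with the smallest p did not pass. The calmodulin gene Calm3 averaged 104 ± 3.18 FPKM in fl/fl hearts and 82.9 ± 4.56 FPKM in cKO hearts (adjusted p = 0.21 in limma). The adenylyl cyclase Adcy5 read 21.9 ± 3.12 and 28.7 ± 3.19 FPKM, the sodium channel modulator Fgf13 33 ± 5.22 and 24.7 ± 3.87 FPKM, and the kinase Camk2b 3.66 ± 0.214 and 2.7 ± 0.444 FPKM (SD, n = 3 each). Their adjusted p-values in limma were 0.299, 0.319 and 0.362. Rrad, the small GTPase that restrains L-type channels and is released from them under beta-adrenergic drive, was at 131.8 ± 26.8 and 128.9 ± 20.7 FPKM, with wide overlap.

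Of 15 tested genes listed as partners or regulators of T-type channels, 0 passed in limma, and 2 had an unadjusted p under 0.05, against 12.7% of all tested genes. Csrp2, a LIM domain protein, read 57.8 ± 3.66 FPKM in fl/fl hearts and 36.7 ± 4.89 FPKM in cKO hearts (SD, n = 3 each; adjusted p = 0.0701). The other was Calm3, which stands in both partner lists. The lists share further genes, among them Camk2d, Camk2g, Cav3 and Stac. The transcription factors Rest, a repressor of fetal heart genes, Sp1, Egr1, Nkx2-5 and Gata4 overlapped between genotypes, with ratios from 0.917 to 1.12.

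Among 18 tested genes of calcium release, uptake and extrusion, the release channel Ryr2 fell and 0 rose in limma. Ryr2 read 117, 104.8 and 119.6 FPKM in fl/fl hearts and 56.8, 57.3 and 51 FPKM in cKO hearts (adjusted p = 0.00604 in limma). The call was lost within replicates 1 and 2 and with no filter on low genes. The ratio of its means was 0.484, while that of Cacna1c, whose calcium opens it, was 1.33. Hrc, Pln, Sln, Trdn and Atp2a2 also read lower in every cKO heart than in any fl/fl heart without passing, and Slc8a1, the sodium-calcium exchanger, overlapped. With Ryr2, 6 of the 18 genes lay apart in this way, against 10.3% of all tested genes. Signs in this list were 9 positive and 9 negative. Ryr2 and Pln are also ventricular markers, of which 12 of 14 read lower in every cKO heart (10.3% of all tested genes did), and Sln is an atrial one.

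Markers of other cells that can carry these channels moved to different extents. Summed smooth muscle and pericyte markers were 518.5 to 546.6 FPKM in fl/fl hearts and 924.1 to 1087 FPKM in cKO hearts. Most of that gap was Acta2, the 1 gene of 13 called, at 96.1 and 548.5 FPKM. Of the 13 genes 8 had a positive and 5 a negative sign, the latter including Myh11, which averaged 17.6 FPKM in fl/fl hearts and 13.9 FPKM in cKO hearts, and Tagln, at 74.5 and 46.5 FPKM. Their part in the level of Cacna1h was not tested. Sinoatrial and conduction markers summed to 80.8 to 111.4 FPKM in fl/fl hearts and 91.7 to 116.3 FPKM in cKO hearts, with 0 of 8 called in limma and 2 at an unadjusted p under 0.05. Hcn4, the main pacemaker channel, was higher in every cKO heart, at 2.63, 2.53 and 4.65 FPKM in fl/fl hearts and 6.82, 5.42 and 7.24 FPKM in cKO hearts. Its ratio of means was 1.98 and its log2 difference 0.84 (adjusted p = 0.158 in limma), beside 2.01 and 0.84 for Cacna1h. The conduction marker Cntn2 lay the other way, at means of 1.74 and 0.974 FPKM. The part of pacemaker and conduction tissue in the level of Cacna1h was not tested. Neuronal markers summed to 3.9 to 5.3 FPKM in fl/fl hearts and 3.09 to 3.34 FPKM in cKO hearts. The 12 endothelial and 10 fibroblast markers all had positive signs (medians 0.32 and 0.22), with 0 called in limma. At an unadjusted p under 0.05 were 6 of the 12 and 2 of the 10, against 12.7% of all tested genes. Skeletal muscle markers summed to 28.8 to 60 FPKM in fl/fl hearts and 28.2 to 46.7 FPKM in cKO hearts.

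The genes whose pattern over the 6 libraries was most like that of Cacna1h, by root mean square difference in centred log2(FPKM + 1), were Pgap2 (0.10), AW011738 (0.12) and Wnk1 (0.12). Pgap2 averaged 34 FPKM in fl/fl hearts and 55.5 FPKM in cKO hearts. For Cacna2d2 they were Slc36a2 (0.12), Ryr2 (0.15) and Sytl2 (0.21). Sytl2, at 2.59 FPKM in fl/fl hearts and 1.08 FPKM in cKO hearts, shared with Cacna2d2 its highest value in fl/fl 1 and its lowest fl/fl value in fl/fl 2.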

How the data were processed

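Whole-heart polyadenylated RNA was sequenced in 6 mice, 3 per genotype, with groups taken from sample titles and columns from sample descriptions. Each sample is labelled as a heart, and p-values measure the spread between these samples. The submitters' processing notes name TopHat (1.0.0), Cufflinks and Cuffdiff, and the authors deposited FPKM per library and per group. Per the file headers, the authors' table also holds a p-value and q-value per gene. Libraries are stranded according to the series' design, but the kit in the labels' protocol keeps no strand information, so antisense reads may be counted with a gene. Values of 0 appear as 0.01. One failed row was left out. The submitters name mm10, but only 3 of the 9 genes overlapped their GRCm38.p6 position, so the build of the table's coordinates is not settled.

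Differences were computed across all genes with limma 3.58.1 in R 4.3.3 (trend, two-sided, Benjamini-Hochberg over 12103 genes, threshold 0.05) on log2(FPKM + 1), with a filter at a mean FPKM of 1. SE of members come from the pooled spread of the 3 libraries per genotype. Named genes were the 9 members, other subunits with a mean of at least 1 FPKM, called genes and up to 4 more per partner list, markers, and the 3 nearest genes to the members with the highest and lowest ratio. Other subunits, markers and regulators named below those limits (Cacna1i, Cacna2d3, Cacng2, Cacng3, Cacng8, Rrad, Atp2a2, Slc8a1, Myh11, Tagln, Hcn4, Cntn2, Tpsb2, Mcpt4, Cma1, Kit, Hdc, Gata2 and the transcription factors) were chosen after their values were seen. Members and lists were chosen with earlier results of these data known. The closest libraries, cKO 1 and cKO 2, differed by 0.252 (root mean square log2), so none was a duplicate. Words of 50 bases were compared over GENCODE M21 transcripts. The limma script was tested on simulated data. Figures were drawn with matplotlib 3.10.9.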

Additional observations from a re-analysis of the deposited data

How the results depend on the processing

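All 16 alternatives kept the sign for Cacna1c, Cacna1h and Cacna2d1, and all 15 that could be run for Cacna1g, Cacnb1 and Cacna2d2, which lie below a filter at a mean FPKM of 5. The log2 difference of Cacna1h ran from 0.49 with a pseudocount of 5 to 1.00 with one of 0.1, and that of Cacna2d2 from -1.79 with 0.1 to -0.41 with 5. The sign turned in 3 of 16 settings for Cacnb2 and 2 of 15 for Cacnb3. The number of genes called was 71, but 9 with no filter, 38 without the intensity trend, 13 within replicates 1 and 2, and 13 to 34 with 1 library left out. The L-type partner call was lost with no filter (0) and within replicates 1 and 2 (0), and leaving out a library gave 0 to 1. Calcium cycling calls were 0 with no filter, 2 with quantile normalization (Ryr2 and Hrc), 0 within replicates 1 and 2, and 1 to 2 with a library left out. The causes were not tested.

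With the replicate number as a replicate block 213 genes were called, among them Cacna2d2 (adjusted p = 0.0466 in limma), 1 T-type partner (Csrp2), with 2 in the calcium cycling list (Ryr2 and Sln). Same-numbered hearts had correlated deviations of 0.089, 0.271 and 0.429 from their group means, and cKO 1 correlated more with fl/fl 2 (0.152), so the numbers were not taken as pairs.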
